A study of Mus musculus with 6 samples.

Results

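The 8 genes described here are mitogens of smooth muscle and the receptors that bind them: the platelet-derived growth factor (PDGF) genes Pdgfa, Pdgfb, Pdgfc and Pdgfd, the PDGF receptor gene Pdgfrb, the fibroblast growth factor (FGF) gene Fgf2, and the FGF receptor genes Fgfr1 and Fgfr2. They were picked out by gene symbol from a table of 22956 genes, with no threshold on a measured value but with earlier results of these data known, and all 8 had a row. The series holds 6 RNA-seq samples of aorta with the cell type given as smooth muscle, from C57B6 mice aged 30 weeks that had eaten a western (fat-rich) diet for 20 weeks. In 3 of them, the miR-21 knockout (group miR21 -/-), the genotype was miR-21fl/flmTmG/Myh11ERT2: a floxed miR-21 gene with the mTmG reporter and an inducible Cre driven by the smooth muscle promoter of Myh11. The other 3, of genotype WT/mTmG/ Myh11ERT2, carried the same reporter and driver with an unaltered miR-21 gene. Both groups thus share the transgenes and the diet. By this design, deletion by the induced Cre would be limited to cells that express Myh11, and loss of miR-21 was not checked here. The comparison asks which messages differ between aortic smooth muscle of the miR-21 knockout group and of the WT group.

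PDGF and FGF are secreted proteins that bring together a pair of receptor molecules on the cell surface. The paired receptors phosphorylate each other and pass the signal on through adaptor proteins to the RAS and MAP kinase pathway and to PI3 kinase. In the artery wall, signalling through the beta receptor of PDGF drives smooth muscle to migrate and divide and to lose contractile proteins, and FGF2 stored on heparan sulphate in the matrix is released on injury. MicroRNAs such as miR-21 lower messages that carry a match to their seed, mostly in the 3′ untranslated region (UTR).

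The mature miR-21a-5p is shown because its seed defines the site that was searched for in the 8 messages. It is 22 bases long, lies at chr11:86584120-86584141 on the minus strand (RefSeq, GRCm38.p6), and has its seed, bases 2 to 8 from the 5′ end, in capitals.
miR-21a-5p: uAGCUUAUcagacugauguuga
The matching DNA letters, ATAAGCT, were absent from the annotated 3′ UTR of all 8 genes on the sense strand. Of 13185 tested genes with a searchable 3′ UTR, 7.33% held ATAAGCT, and 2.18% held the longer form ATAAGCTA, which contains it. The searched 3′ UTRs of the 8 genes ran from 250 bases in Fgfr2 to 5311 bases in Fgf2, and the median over all searched genes was 1051 bases. With the longest annotated 3′ UTR of each gene, 1508 bases in Fgfr2 and 1942 in Pdgfd, the letters were again found in 0 of the 8. A missing match says only that these letters are not in this window.

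The genes lie apart in the genome (coordinates from GENCODE M21 on GRCm38, which is mm10). Pdgfa is on chromosome 5 (138976014 to 138997370, minus strand), Pdgfb on chromosome 15 (79995874 to 80014977, minus strand) and Pdgfd on chromosome 9 (6168584 to 6378850, plus strand). Chromosome 3 holds Fgf2 (37348346 to 37410108, plus strand) and Pdgfc (81036416 to 81214040, plus strand). Pdgfrb is on chromosome 18 (61045150 to 61085061, plus strand) and Fgfr1 on chromosome 8 (25513654 to 25575718, plus strand). Fgfr2 is on chromosome 7 (130162451 to 133123350, minus strand), with an annotated span of 2960.9 kb that overlaps 69 other annotated genes. The deposited Pdgfb row has other ends, 79995900 and 80014809.

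Some of these genes share exon bases with a neighbour, and whether reads were counted by strand is not given in the sources used here, so reads from the shared bases cannot be assigned with certainty. The antisense gene 6330403L08Rik covers 26.1% of the exon bases of Pdgfa and had 13.1 to 17.99 CPM, the count of a gene scaled to the library total. Nudt6, which runs antisense to the end of Fgf2, covers 9.44% of its exon bases and had 1.90 to 3.14 CPM. Fgfr2 shares 314 bases, 3.04% of its exon bases, with Ctbp2, a corepressor gene at 23.7 to 25.7 CPM. Ctbp2 lies on the same strand as Fgfr2, so counting by strand would not separate reads from these bases. Pdgfc shares 2.89% with Gm16000, which had at most 0.240 CPM. Fgf2 also shares 3.76% with Gm43439, on its own strand, and Fgfr1 shares 1.66% with the antisense gene Gm16159. Neither Gm43439 nor Gm16159 is among the genes analysed. How the reads of shared bases bear on the values of these genes was not tested.

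Library totals ran from 37787465 to 154384307 estimated counts, and the 8 genes had 539 or more in every library (highest 88066, Pdgfrb in WT 3). The labels leave unsaid whether replicates are separate animals, and p-values here cover the spread between libraries alone, which may be technical. Loss of miR-21 was not checked here, since Mir21a is not among the genes analysed and its host Vmp1 averaged 68.1 ± 8.12 CPM in the knockout and 69.7 ± 15.3 CPM in WT (SD, n = 3 each). Over 16654 genes, edgeR's quasi-likelihood test with Benjamini-Hochberg adjustment called 0 (0.0%) at an adjusted p under 0.05. DESeq2 called 75 of 15355 (0.488%). Smooth muscle markers were abundant, with Acta2 between 9861 and 15772 CPM in every library, while markers of other cells were uneven. Among endothelial markers, Pecam1 had 52.9 to 63.6 CPM and Erg 35.5 to 50.5 CPM, but Cdh5 and Kdr at most 0.724 CPM. Among macrophage markers, Lyz2 had up to 12.6 CPM and Cd14 up to 8.78 CPM, and Adgre1 at most 0.268 CPM.

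None of the 8 genes differed between the miR-21 knockout and WT beyond the spread between libraries. In the fit across all genes, 0 of 8 passed an adjusted p of 0.05 and 0 of 8 had an unadjusted p under 0.05, against 5.96% of all genes tested (3.95% higher and 2.01% lower in the knockout). In 0 of 8 did the groups lie fully apart, against 12.1% of all genes (6.48% higher and 5.6% lower in the knockout). Log2 fold changes, knockout over WT, lay between -0.15 and 0.18, with 6 above 0 and 2 below. Their median was 0.08, beside -0.0022 for all genes tested, and the smallest edgeR adjusted p among them was 0.864. The 95% intervals of all 8 lay between 0.622-fold and 1.48-fold. In bulk RNA, fewer cells of a type and less message per cell cannot be told apart.

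**Figure D1:**
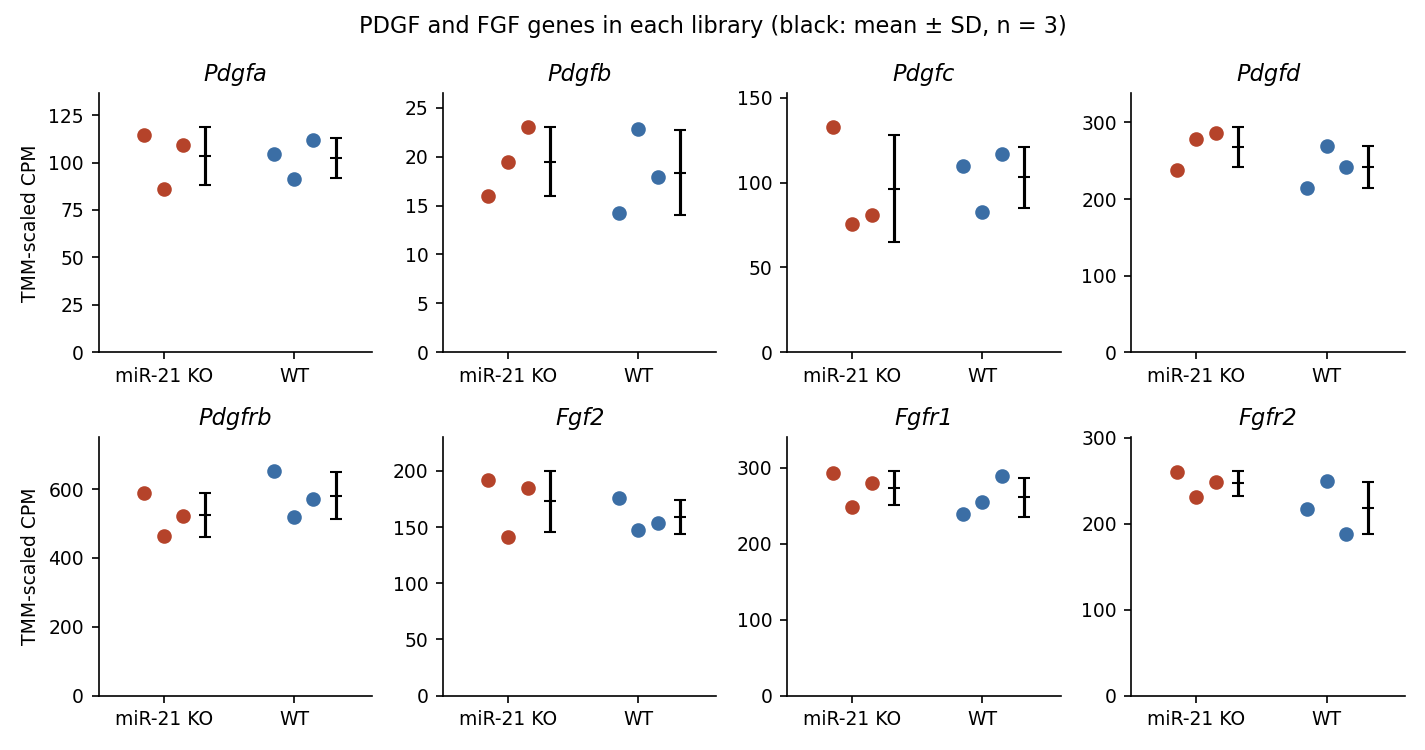
TMM-scaled CPM (vertical axes, from 0) of the 8 genes in the 3 miR-21 knockout libraries (red) and the 3 WT libraries (blue), with the mean and SD of each group in black. The groups overlap in every panel, and for Pdgfc knockout 1, at 133 CPM, stands above the other knockout libraries at 75.8 and 81.0 CPM.

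Pdgfrb, which encodes the receptor for PDGF-B and PDGF-D on smooth muscle and pericytes, had 589, 464 and 522 CPM in knockout 1, 2 and 3, against 653, 518 and 572 CPM in WT 1, 2 and 3 (CPM here and below are scaled by edgeR's TMM factors). WT 1 was the highest library and knockout 2 the lowest, and the groups overlapped. The means were 525 ± 62.7 CPM in the knockout and 581 ± 67.9 CPM in WT (SD, n = 3 each). The log2 fold change was -0.15 ± 0.13 (SE; edgeR adjusted p = 0.873), with a 95% interval of 0.735-fold to 1.11-fold. It was below 0 without each library in turn, from -0.24 without knockout 1 to -0.06 without WT 1.

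Among the ligands of that receptor, Pdgfd had 238, 278 and 287 CPM in knockout 1, 2 and 3, against 215, 269.7 and 242 CPM in WT 1, 2 and 3. PDGF-D is secreted in a latent form that proteases such as urokinase cut before it binds the beta receptor. Knockout 3 was highest and WT 1 lowest, with knockout 1 inside the WT range. The means were 268 ± 26.0 CPM in the knockout and 242 ± 27.5 CPM in WT (SD, n = 3 each). The log2 fold change was 0.15 ± 0.11 (SE; edgeR adjusted p = 0.872; 95% interval 0.920-fold to 1.33-fold). Without WT 1 the log2 fold change was 0.07 and without WT 2 it was 0.23.

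Pdgfb, the classical platelet and endothelial ligand of the beta receptor, had 16.0, 19.5 and 23.0 CPM in knockout 1, 2 and 3, against 14.2, 22.9 and 17.96 CPM in WT 1, 2 and 3. The lowest library in both genotypes was replicate 1, and the ranges overlapped almost entirely. The means were 19.5 ± 3.54 CPM in the knockout and 18.4 ± 4.35 CPM in WT (SD, n = 3 each). The log2 fold change of 0.09 ± 0.20 (SE; edgeR adjusted p = 0.958) had a wide 95% interval, 0.762-fold to 1.48-fold, and turned to -0.06 without WT 1 and to -0.05 without knockout 3. The platelet gene Pf4 was at most 0.320 CPM in all libraries, and Itga2b, the platelet marker with the highest CPM, at most 2.93 CPM. Pecam1, the endothelial marker with the highest CPM, had 59.5 ± 5.79 CPM in the knockout and 59.1 ± 1.41 CPM in WT (SD, n = 3 each). Endothelial markers were not alike, since Cdh5 and Kdr had at most 0.724 CPM. Of the 9, 6 were above 0 in log2 fold change and 3 below. The part of these cells in the level of Pdgfb was not tested.

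The remaining PDGF ligands act mainly on the alpha receptor. Pdgfa had 115, 86.0 and 109 CPM in knockout 1, 2 and 3, against 104, 91.1 and 112 CPM in WT 1, 2 and 3. Its means were 103 ± 15.3 CPM in the knockout and 103 ± 10.5 CPM in WT (SD, n = 3 each). The log2 fold change was 0.01 ± 0.13 (SE; edgeR adjusted p = 0.992; 95% interval 0.818-fold to 1.24-fold), and its sign turned without knockout 1 (-0.07), without knockout 3 (-0.03) and without WT 2 (-0.07), and with upper-quartile scaling (-0.00087). Pdgfa thus had the fold change closest to 0 of the 8.

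Pdgfc, a ligand that tissue plasminogen activator cuts into its active form, varied most between libraries. It had 133, 75.8 and 81.0 CPM in knockout 1, 2 and 3, against 109.7, 82.6 and 117 CPM in WT 1, 2 and 3, and its highest library exceeded its lowest 1.75-fold. Both extremes were knockout libraries. The means were 96.5 ± 31.5 CPM in the knockout and 103 ± 18.1 CPM in WT (SD, n = 3 each). The fit gave a log2 fold change of -0.10 ± 0.24 (SE; edgeR adjusted p = 0.963; 95% interval 0.622-fold to 1.40-fold). Leaving out knockout 1 moved this value most, to a log2 fold change of -0.40, with an unadjusted edgeR p of 0.0388 and an adjusted p of 0.488. Without knockout 2, knockout 3 or WT 3 the log2 fold change turned to 0.05, 0.02 and 0.0013.

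Fgf2, the basic FGF that smooth muscle makes and keeps on matrix heparan sulphate, had 192, 141 and 185 CPM in knockout 1, 2 and 3, against 176, 147 and 153 CPM in WT 1, 2 and 3. Knockout libraries gave both the highest and the lowest value, so the WT range lay inside that of the knockout. The means were 173 ± 27.3 CPM in the knockout and 159 ± 15.02 CPM in WT (SD, n = 3 each). The log2 fold change was 0.12 ± 0.13 (SE; edgeR adjusted p = 0.904; 95% interval 0.877-fold to 1.35-fold). Without knockout 2 it was 0.25, with an unadjusted edgeR p of 0.0471 and an adjusted p of 1.00, and without knockout 1 it was 0.03.

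Fgfr1, the main FGF receptor of mesenchymal cells, had 293, 248 and 279 CPM in knockout 1, 2 and 3, against 239.8, 255 and 289.9 CPM in WT 1, 2 and 3. It was the steadiest of the 8, its highest library only 1.22-fold above its lowest. The means were 273 ± 22.8 CPM in the knockout and 262 ± 25.7 CPM in WT (SD, n = 3 each). The log2 difference was 0.06 ± 0.10 (SE; edgeR adjusted p = 0.939; 95% interval 0.886-fold to 1.23-fold). Leaving out WT 1 gave 0.0046, and leaving out WT 3 gave 0.14.

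Fgfr2 encodes a receptor whose splice forms bind different FGFs, and gene counts do not separate those forms. It had 260.4, 231 and 249 CPM in knockout 1, 2 and 3, against 217, 249 and 188 CPM in WT 1, 2 and 3. WT 3 was the lowest library, and WT 2 lay within the knockout range. The means were 247 ± 14.7 CPM in the knockout and 218 ± 30.5 CPM in WT (SD, n = 3 each), the largest positive log2 fold change of the 8 at 0.18 ± 0.11 (SE; edgeR adjusted p = 0.864; 95% interval 0.941-fold to 1.36-fold). Without WT 2 it was 0.28, with an unadjusted edgeR p of 0.0299 and an adjusted p of 0.601, and without WT 3 it was 0.08.

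**Figure D2:**
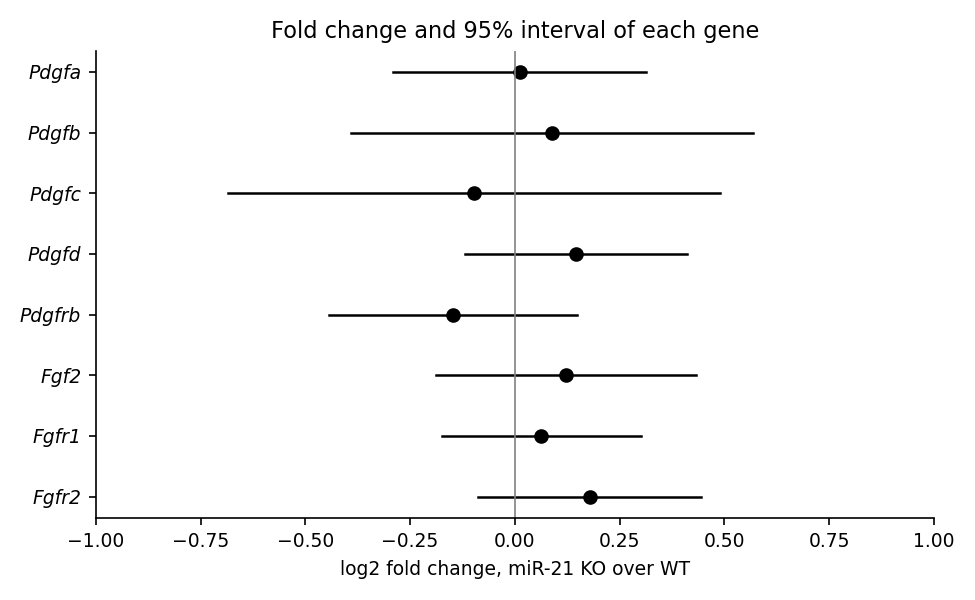
Log2 fold change of each gene, miR-21 knockout over WT (horizontal axis; point, edgeR estimate; line, 95% interval). All 8 intervals cross 0, and that of Pdgfc is the widest, from -0.68 to 0.49.

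Levels of different genes were compared as CPM per kb of all annotated exon bases. On this scale Pdgfrb came first, at 95.8 ± 11.4 CPM per kb in the knockout and 106 ± 12.4 in WT, and Pdgfd second, at 84.9 ± 8.24 in the knockout and 76.8 ± 8.72 in WT (SD, n = 3 each). Their ranges over the 6 libraries overlapped, and Pdgfrb was above Pdgfd in 5 of 6. Both lay above every other gene in every library. The range of Pdgfa overlapped that of Fgfr1, the next in order, and it was at 33.1 ± 4.90 in the knockout and 32.9 ± 3.37 in WT. Fgfr1, at 27.7 ± 2.31 in the knockout and 26.5 ± 2.598 in WT, Fgf2, at 25.5 ± 4.03 in the knockout and 23.4 ± 2.21 in WT, and Fgfr2, at 23.9 ± 1.42 in the knockout and 21.1 ± 2.95 in WT, had ranges that overlapped with one another. Pdgfc was at 18.96 ± 6.18 in the knockout and 20.3 ± 3.56 in WT, its range overlapping that of Fgfr2. Pdgfb was last in every library, at 4.68 ± 0.850 in the knockout and 4.41 ± 1.04 in WT, with no overlap with Pdgfc.

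The order of the receptors depends on the length used, because the annotation lists 27 transcripts of Fgfr2 and 19 of Fgfr1, and their exons sum to 10.33 and 9.88 kb. Per kb of the principal transcript, 3.32 kb for Fgfr2 and 5.03 kb for Fgfr1, Fgfr2 was at 74.3 ± 4.42 in the knockout and 65.6 ± 9.18 in WT, behind Pdgfd and Pdgfrb, and Fgfr1 at 54.4 ± 4.53 in the knockout and 52.1 ± 5.11 in WT (SD, n = 3 each). Pdgfd then came first, at 149 ± 14.5 in the knockout and 135 ± 15.3 in WT, with Pdgfrb second at 97.0 ± 11.6 in the knockout and 107 ± 12.6 in WT. On this scale Pdgfd was above Pdgfrb, and Fgfr2 above Fgfr1, in 5 of 6 libraries each, with ranges that overlapped. Pdgfb was last on both scales.

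**Figure D3:**
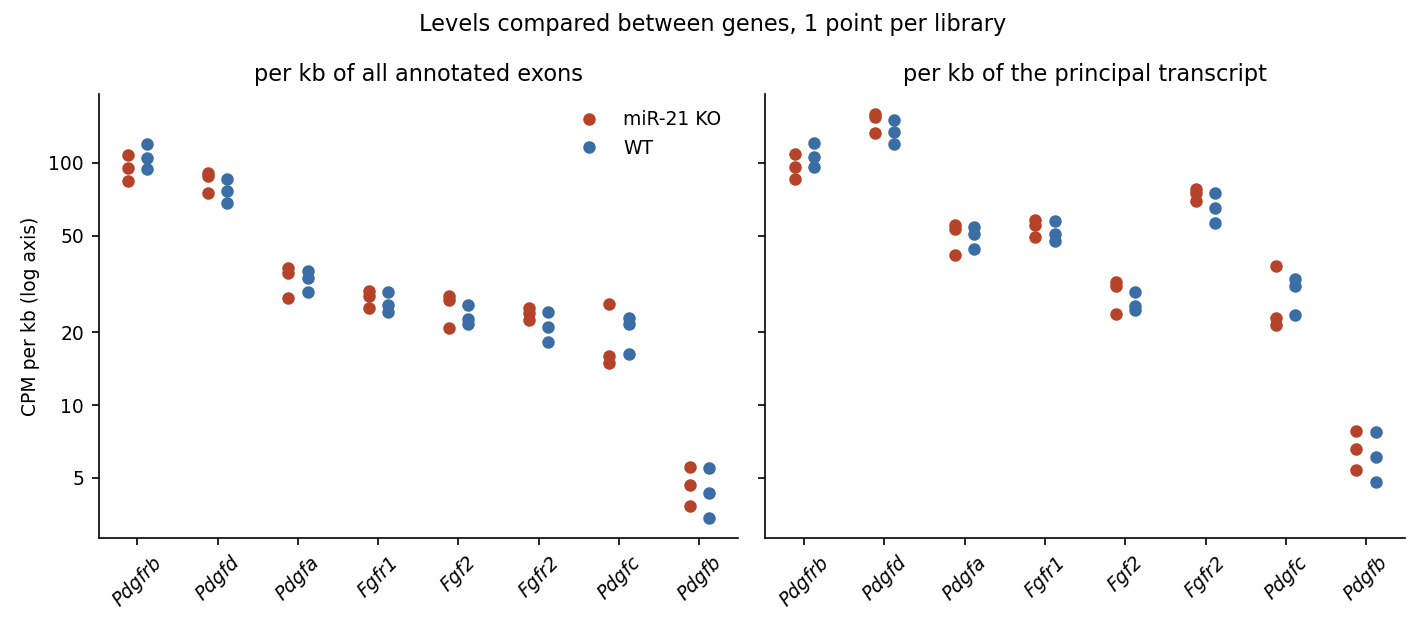
CPM per kb (log axis) of the 8 genes in each miR-21 knockout (red) and WT (blue) library, divided by the summed length of all annotated exons (left) or by the length of the principal transcript (right). Pdgfrb and Pdgfd are highest and Pdgfb lowest on both scales, and Fgfr2 moves from about the level of Fgf2 to above Fgfr1 in 5 of 6 libraries.

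Among the 4 PDGF ligand messages, Pdgfd made up 59.98 ± 6.21% of the summed CPM per kb of exon in the knockout and 57.1 ± 4.85% in WT (SD, n = 3 each). Pdgfa made up 23.3 ± 2.78% in the knockout and 24.5 ± 2.71% in WT, and Pdgfc 13.4 ± 4.30% in the knockout and 15.1 ± 2.81% in WT. The share of Pdgfb was 3.30 ± 0.544% in the knockout and 3.27 ± 0.684% in WT. For each ligand the shares of the groups overlapped.

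The spread between libraries ran across the genotypes. Pdgfc was at or above 109.7 CPM in knockout 1, WT 1 and WT 3 and at or below 82.6 CPM in knockout 2, knockout 3 and WT 2. Pdgfrb was likewise highest in those first 3 libraries, at 572 CPM or more, and at 522 CPM or less in the other 3. Pdgfd and Pdgfb ran the other way, with Pdgfd at or below 242 CPM and Pdgfb at or below 17.96 CPM in knockout 1, WT 1 and WT 3. Pdgfa, Fgf2, Fgfr1 and Fgfr2 did not divide the libraries in this way. The division was read from the values themselves, and the share of all genes that show it was not worked out.

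The summed level of 8 fibroblast markers divided the libraries likewise, with 7 of the 8 below 0 in log2 fold change. It was 8793, 2886 and 3616 CPM in knockout 1, 2 and 3, against 9298, 4718 and 8579 CPM in WT 1, 2 and 3, with none at 0 throughout and Col1a1 highest, at 2367 ± 1080 CPM in the knockout and 2603 ± 633 CPM in WT. Pdgfra, the alpha receptor and a fibroblast marker, had 75.3, 25.6 and 27.0 CPM in knockout 1, 2 and 3, against 81.0, 34.6 and 59.9 CPM in WT 1, 2 and 3. The 7 smooth muscle markers summed to 27718, 36050 and 33948 CPM in knockout 1, 2 and 3, against 22997, 34625 and 28912 CPM in WT 1, 2 and 3, lower in knockout 1, WT 1 and WT 3 than in the other 3. All 7 smooth muscle markers were above 0 in log2 fold change, with 0 past the adjusted threshold. At an unadjusted edgeR p under 0.05 there was 1 of the 7, against 5.96% of all genes. The part of these markers in the levels of Pdgfc, Pdgfrb, Pdgfd and Pdgfb was not tested.

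**Figure D4:**
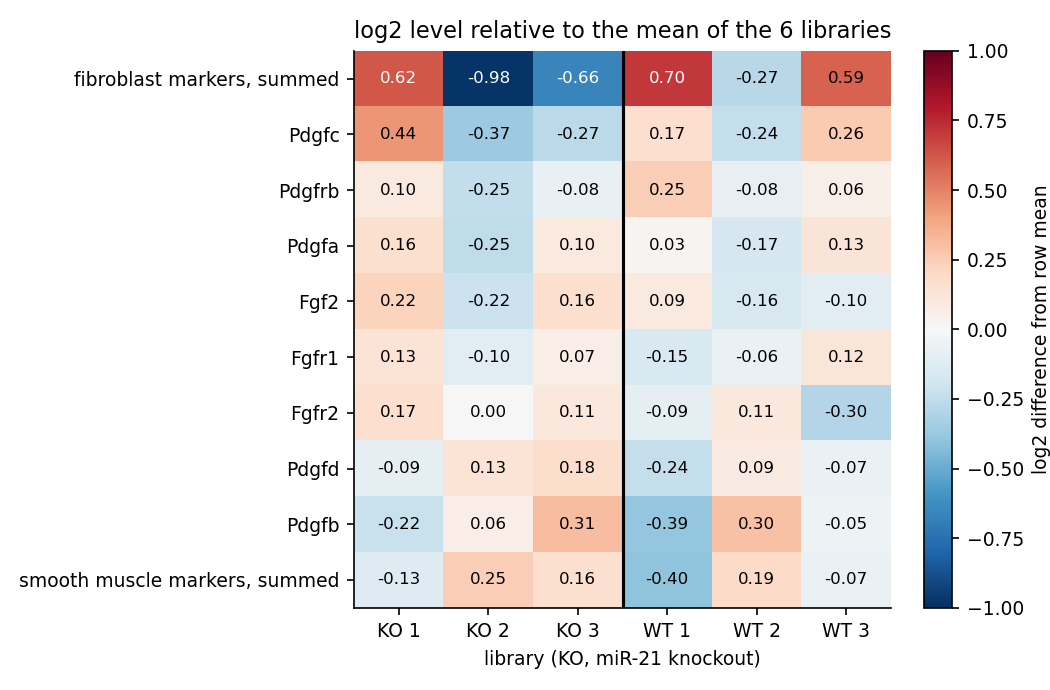
Log2 level of each gene and of the summed fibroblast and smooth muscle markers in each library, relative to the mean of that row over the 6 libraries (columns, miR-21 knockout then WT; red above, blue below the mean). Pdgfc is at 0.44, 0.17 and 0.26 in knockout 1, WT 1 and WT 3, where the summed fibroblast markers are at 0.62, 0.70 and 0.59.

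The 7 pericyte markers, some of which arterial smooth muscle also expresses, summed to 3975, 4820 and 4887 CPM in knockout 1, 2 and 3, against 3637, 4546 and 3656 CPM in WT 1, 2 and 3, again lower in knockout 1, WT 1 and WT 3. Rgs5 was highest among them, at 1748 ± 371 CPM in the knockout and 1543 ± 289 CPM in WT (SD, n = 3 each), and Higd1b was at most 0.0791 CPM. Of the 6 tested pericyte markers, 2 (Cspg4 and Notch3) were higher and 1 (Kcnj8) lower in the knockout when edgeR's p was left unadjusted at 0.05, with groups that did not overlap and 0 past the adjusted threshold. Over all genes, 5.96% passed that unadjusted p and 12.1% had groups that did not overlap. Pdgfrb, which pericytes also express, had the fold change given above, and the part of these markers in it was not tested.

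The 9 endothelial markers summed to between 101 and 114.5 CPM in the knockout and between 104 and 119 CPM in WT, and the 9 macrophage markers to between 6.38 and 29.0 CPM in the knockout and between 7.76 and 29.5 CPM in WT, led by Lyz2 at up to 12.6 CPM. Of the adipocyte list 2 of 6 genes were in the table, led by Fabp4 at 43.7 ± 8.32 CPM in the knockout and 44.7 ± 6.59 CPM in WT (SD, n = 3 each). Platelet and T cell markers summed to at most 3.09 and 0.369 CPM, with Itga2b at most 2.93 CPM. Schwann cell markers, led by S100b, summed to between 2.53 and 10.003 CPM in the knockout and between 5.33 and 7.75 CPM in WT. Red cell globin genes, led by Hbb-bs, were uneven, at 139, 39.9 and 17.9 CPM in knockout 1, 2 and 3, against 261, 39.5 and 10.1 CPM in WT 1, 2 and 3.

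Of 104 further genes of PDGF and FGF signalling in 6 lists, 89 were tested and 0 passed the edgeR threshold over all genes. At an unadjusted p under 0.05, 4 were higher in the knockout, Hspg2, Gab1, Frs2 and Dusp6, and 0 were lower, which is 4.49% of the 89 against 5.96% of all genes. Their median log2 fold change was 0.03, beside -0.0022 for all genes. The unadjusted count was 1 without knockout 3, 11 without knockout 1, 7 without WT 1 and 9 with limma-voom sample weights. The share of all genes was not worked out for these settings, and the 5.96% belongs to the main fit alone. Whether these counts differ from those of all genes was therefore not tested.

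Hspg2, which encodes perlecan, a basement membrane proteoglycan whose heparan sulphate chains hold FGF2, had 618, 561 and 632 CPM in knockout 1, 2 and 3, against 461, 495 and 449.8 CPM in WT 1, 2 and 3. The knockout range of Hspg2 was entirely above the WT range, as in 6.48% of all genes. Its means were 603 ± 37.8 CPM in the knockout and 469 ± 23.7 CPM in WT (SD, n = 3 each), and the log2 fold change was 0.37 ± 0.08 (SE). The edgeR adjusted p was 0.735, while DESeq2 gave an adjusted p of 0.00676. Over the alternatives the adjusted p ran from 0.00676 to 1.00 and the log2 fold change ran from 0.33 to 0.41. Hspg2 was the only named pathway gene that an alternative called.

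The adaptors Gab1 and Frs2, which link the receptors to the RAS pathway, were at 68.8 ± 0.228 CPM in the knockout and 59.1 ± 5.33 CPM in WT, and at 63.1 ± 2.90 CPM in the knockout and 55.6 ± 4.22 CPM in WT (SD, n = 3 each). Their log2 fold changes were 0.22 ± 0.08 and 0.18 ± 0.07 (SE), with edgeR adjusted p of 0.800 and 0.830. Of the 29 relay genes, 17 were above 0 and 12 below, with a median log2 fold change of 0.06 and with Stat3 highest in CPM at 276 ± 34.7 CPM in the knockout and 293 ± 40.9 CPM in WT. Stat3 had a log2 fold change of -0.08, which turned to 0.0070 without knockout 2 and to 0.02 without WT 1.

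Among the 18 brakes on receptor signalling, 13 were above 0 and 5 below, with a median of 0.07. Dusp6, a phosphatase that switches off the MAP kinase ERK, had 96.3 ± 8.32 CPM in the knockout and 76.9 ± 13.1 CPM in WT, a log2 fold change of 0.32 ± 0.13 (SE; edgeR adjusted p = 0.830). WT 3, at 90.8 CPM, lay among the knockout libraries, and without WT 1 the value was 0.21 and without WT 3 it was 0.46. Ptprj, a receptor-type phosphatase, was at 0.20 ± 0.09 (0.12 without WT 3), and Errfi1, an inhibitor of the EGF receptor with the highest CPM of the list, at 0.09 ± 0.25 (SE), turning to -0.13 without knockout 2 and to -0.12 without WT 2.

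Of the other FGF ligands, 10 of 21 were tested, 5 above 0 and 5 below, with a median of 0.07. Fgf1, the acidic FGF, had the highest CPM, at 148 ± 11.1 CPM in the knockout and 132 ± 7.85 CPM in WT (log2 fold change 0.16 ± 0.08, SE; 0.11 without knockout 3). Fgf11, an FGF relative that stays in the cell, had 5.10, 5.01 and 5.41 CPM in knockout 1, 2 and 3, against 4.30, 4.47 and 4.32 CPM in WT 1, 2 and 3. The knockout range of Fgf11 lay above its WT range, as in 6.48% of all genes. Its log2 fold change of 0.25 ± 0.12 (SE) had an edgeR adjusted p of 0.855. Over the 89 tested genes of the 6 lists, 4 (4.49%) had groups that did not overlap, against 12.1% of all genes. Of the 9 tested FGF receptor and co-receptor genes beside the members, Hspg2 among them, 3 were above 0 and 6 below, with a median of -0.13. Sdc1, a cell surface heparan sulphate proteoglycan, had 263, 101 and 121 CPM in knockout 1, 2 and 3, against 271, 157 and 251 CPM in WT 1, 2 and 3. Its log2 fold change was -0.49 ± 0.41 (SE), and it was -1.04, -0.24 and -0.31 without knockout 1, 2 and 3 in turn.

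In the list of PDGF family and processing genes, 4 of 9 were above 0 and 5 below, with a median of -0.07. Pdgfrl, a PDGF receptor-like gene, had 15.9, 15.8 and 15.005 CPM in knockout 1, 2 and 3, against 15.9, 19.7 and 27.5 CPM in WT 1, 2 and 3. Its log2 fold change was -0.44 ± 0.19 (SE; edgeR adjusted p = 0.835). This log2 fold change was -0.19 without WT 3 and -0.60 without WT 1. Furin, a protease that cuts proproteins, was at 0.12 ± 0.09 (SE), with 0.07 when knockout 3 was left out and 0.05 when WT 3 was. Sparc, a matrix protein that binds PDGF and has the highest CPM of the list, was at -0.07 ± 0.23 (SE), turning sign without knockout 2 (0.07), knockout 3 (0.05) or WT 3 (0.0027). Pdgfra, which is also in this list, was at -0.46 with an unadjusted edgeR p of 0.400.

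Of the 14 genes listed as growth factor response genes, 7 were above 0 and 7 below, with a median of 0.03 and 0 at an unadjusted p under 0.05. Fos, an immediate early gene, had 5471 ± 1447 CPM in the knockout and 4360.2 ± 673 CPM in WT (SD, n = 3 each), with knockout 2 the highest library at 7094 CPM. Its log2 fold change was 0.33 ± 0.21 (SE), and 0.10 without knockout 2. The ETS factors of the MAP kinase pathway, Etv5 and Elk1, were at -0.27 ± 0.16 and 0.13 ± 0.08 (SE). Etv5 was at -0.14 without knockout 2, and Elk1 at 0.08 without WT 1.

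**Figure D5:**
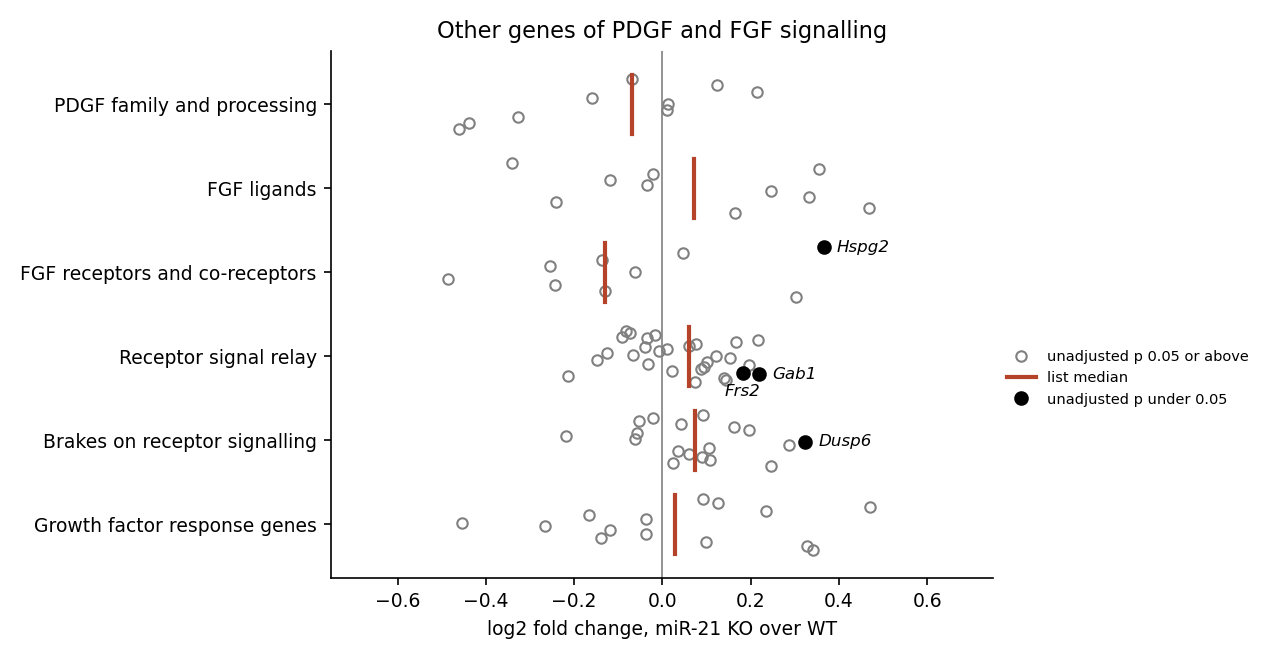
Log2 fold change, miR-21 knockout over WT, of the 89 tested genes in 6 lists of PDGF and FGF signalling (1 circle per gene; filled, unadjusted edgeR p under 0.05; red line, list median). The 4 filled genes, Hspg2, Gab1, Frs2 and Dusp6, lie between 0.18 and 0.37, and all list medians lie between -0.13 and 0.07.

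The genes whose log2 CPM followed each of the 8 most closely over the 6 libraries were listed as a description, by Pearson correlation among 10561 genes with a mean log2 CPM of at least 2. Each r rests on 6 points that share library, depth and cell makeup, and no p is given. For Pdgfrb these included Ctsh (r = 0.998) and Tmem176a, and for Pdgfd they were Speg (r = 0.998), a kinase gene of striated and smooth muscle, Bnip2 and Spata5l1. Pdgfa was followed by Cpeb1 (r = 0.997), Itih2 and Akip1, Pdgfb by Dlst (r = 0.990), Ipo13 and Slc38a7, and Pdgfc by Mrgpre (r = 0.993), Vkorc1 and Nfasc. For Fgf2 they were Dhx38 (r = 0.995), Col4a4 and Gli3, for Fgfr1 they were Maf (r = 0.987), Exosc2 and Mkl2, and for Fgfr2 they were Atr (r = 0.997), Rbpsuh-rs3 and Srrm2.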

How the data were processed

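RNA was measured in 3 miR-21 knockout and 3 WT samples, grouped by title. The values that the authors deposited, in 1 table, are estimated counts of each gene, without normalization. The submitters' processing notes name mm10, STAR 2.6 and DESeq2 without saying what each was used for. Counting tool, strand setting and annotation: not given in the sources used here. Kit, per the labels' protocols: Illumina TruSeq RNA. Estimated counts can divide reads among similar or overlapping genes. They were rounded here.

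filterByExpr kept 16654 genes. After TMM scaling (factors 0.987 to 1.02) edgeR 4.0.16 (R 4.3.3) fitted genotype alone, with robust quasi-likelihood F tests, two-sided, and Benjamini-Hochberg adjustment over all genes. The median standard error was 0.136. Chi-square values between replicates averaged 27.6 to 98.6 per gene, so none was counted as a repeat of another. GENCODE M21 gave exon lengths, overlaps and 3′ UTRs (best APPRIS transcript, at least 8 bases). By position 21548 genes matched it, by symbol 1347, and 61 had no match. Alternatives were DESeq2 1.42.0, its size factors, upper-quartile factors, limma-voom (limma 3.58.1) with sample weights, no filter, a filter of 1 CPM in 3 samples, thinning, a replicate block, each library left out and an FDR of 0.1. The principal transcript length was added after seeing the data.

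Named genes were the 8 genes, per pathway list the 2 of smallest p and the 1 of highest CPM, per marker list the highest in CPM, genes sharing exon bases with a member, Vmp1, and 3 correlated genes per member. A gene that this rule names is not reported here. Cdh5, Kdr, Erg, Adgre1, Cd14, Pf4, Higd1b, Cspg4, Notch3, Kcnj8 and Pdgfra were named after their values were seen. The members and lists were chosen with earlier results of these data known. In simulated counts of 16654 genes for knockout against WT, recovery was 32.8% at 1.5-fold (67 genes), 59.7% at 2-fold (67 genes) and 77.3% at 4-fold (66 genes), beside 9 false calls. Tables and figures used Python 3.11.15, pandas 2.3.3, scipy 1.17.1 and matplotlib 3.10.9.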

Additional observations from a re-analysis of the deposited data

How the results depend on the processing

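Under all 14 alternatives run on the counts, 0 of the 8 PDGF and FGF genes passed an adjusted p of 0.05, and at an FDR of 0.1 the number was also 0. Of 112 fold changes, 103 kept their sign. Of the 9 that did not, Pdgfa turned to -0.00087 with upper-quartile scaling, and with each library left out in turn Pdgfa ran from -0.074 to 0.13, Pdgfb from -0.062 to 0.27 and Pdgfc from -0.40 to 0.049. Among 16 named pathway genes, 216 of 224 values kept sign and side of the threshold, Hspg2 passed in DESeq2, and with each library left out Sparc ran from -0.37 to 0.069, Stat3 from -0.19 to 0.016 and Errfi1 from -0.13 to 0.23. Over all genes, DESeq2 called 75 genes and leaving out libraries gave 0 to 1. The cause was not tested.

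The replicate number as a block called 1 gene, and gave Pdgfrb and Pdgfd unadjusted p of 0.0295 and 0.0484 (edgeR adjusted p 0.331 and 0.390). With this block, 14 pathway genes had an unadjusted p under 0.05. The share of all genes under 0.05 in this fit was not worked out, and the 5.96% given above belongs to the main fit alone. These counts therefore do not set the 8 genes or the pathway genes apart from all genes. Same-numbered libraries deviated together in pairs 1 and 2 (correlations 0.29 and 0.32) but not in pair 3 (-0.03), so the numbers were not taken to pair the samples, and not every library correlated best with its own number. With 3 libraries per group, 32.8% of 67 simulated 1.5-fold changes among 16654 genes were recovered for knockout against WT. Recovery was not worked out for the 8 genes alone, so this share does not describe them. Among their 95% intervals the highest upper limit was 1.48-fold (Pdgfb), so a 1.5-fold rise lay outside all 8. A fall of that size lay inside the interval of Pdgfc, whose lower limit was 0.622-fold. The next lowest limit was 0.735-fold (Pdgfrb). Smaller changes in one of the 8 genes could be missed.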
